A study of Mus musculus with 12 samples.

Results

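The genes described here are 10 members of the Wnt pathway: the target genes Axin2, Lef1, Tcf7, Apcdd1 and Nkd1, and the secreted modulators Dkk2, Dkk3, Sfrp1, Sfrp2 and Sfrp4. They were taken by symbol from a table of 23284 gene symbols, and all 10 were present, each in 1 entry. RNA-seq had been run on 12 libraries of mouse cells sorted for α7-integrin and VCAM, without cells positive for CD31 or CD45, in 4 groups of 3. The transplant group came from tibialis anterior muscle that had received teratoma-derived sorted cells 1 month earlier, and the teratoma group from teratomas 3 weeks old, which are mixed-tissue tumours grown from pluripotent stem cells. The adult group came from whole hindlimbs of males 8 weeks old, a tissue whose resident stem cells, the satellite cells, carry these surface proteins. Whole bodies at E14.5 gave the embryo group. Every group carries the strain label 129P2/OlaHsd, no genotype, transgene or drug is named, and the labels name neither a host strain nor a marker that separates donor from host cells in the transplanted muscle. Embryo and adult cells differ in body site as well as in stage, so site and stage cannot be told apart. The series title concerns muscle stem cells made from pluripotent cells, which is the question behind setting the stem-cell-derived groups against the native ones.

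Canonical Wnt signalling runs through Frizzled receptors and LRP co-receptors and stabilises β-catenin, which then acts on DNA together with transcription factors of the TCF/LEF family. Several targets are themselves brakes on the pathway, so that a responding cell makes more of its own inhibitors, while secreted proteins of the Sfrp and Dkk families act outside the cell on ligands or co-receptors. In skeletal muscle, Wnt ligands are known to act on the embryonic myotome, on fetal progenitors and on satellite cells during regeneration.

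Positions are those of GENCODE M21 on the mm10 build, where the genes are protein-coding. Lef1 (chromosome 3, 131110471 to 131224356, plus strand) and Dkk2 (chromosome 3, 132085292 to 132180304, plus strand) are separated by 861 kb with 4 protein-coding genes between them, and Sfrp2 is on the same chromosome (83766321 to 83774316, plus strand). Axin2 (108920349 to 108950783, plus strand) and Tcf7 (52252371 to 52283014, minus strand) are on chromosome 11, and Nkd1 (88521354 to 88594884) and Sfrp1 (23411502 to 23449632) are on the plus strand of chromosome 8. Dkk3 is on chromosome 7 (112116017 to 112159057, minus strand) and Sfrp4 on chromosome 13 (19623104 to 19632994, plus strand). An antisense gene overlaps each of Axin2, Lef1, Tcf7 and Sfrp2, and whether strand was used in the authors' quantification is not given in the sources used here, so those values may include antisense reads. On the same strand, Gm42449 overlaps Lef1, Gm26551 overlaps Tcf7 and Gm45496 overlaps Nkd1. Reads of these genes may be part of the Lef1, Tcf7 and Nkd1 values too.

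The 4 upstream stretches below belong to genes that were called lower in adult than in embryo cells. Those of Lef1 and Dkk2 were chosen because they hold a match to a motif searched, and those of Axin2 and Sfrp2 as windows without one. Each is the 250 bases before an annotated RefSeq start on GRCm38.p6, printed 5′ to 3′ on the gene's strand. Capitals mark matches on either strand to CTTTGA, the core letters bound by TCF/LEF factors (TCAAAG in reverse), or to TATAAA, the TATA box (TTTATA in reverse). For Lef1 the start shown is the most downstream of 4, which lies inside the gene, at chr3:131156044-131156293. The others are Axin2 at chr11:108920099-108920348, Dkk2 at chr3:132085042-132085291 and Sfrp2 at chr3:83766071-83766320, all on the plus strand.
Axin2: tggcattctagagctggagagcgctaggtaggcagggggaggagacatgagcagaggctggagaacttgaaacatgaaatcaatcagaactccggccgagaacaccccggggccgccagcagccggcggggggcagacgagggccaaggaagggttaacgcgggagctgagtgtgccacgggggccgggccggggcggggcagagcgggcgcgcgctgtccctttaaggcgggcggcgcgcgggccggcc
Lef1: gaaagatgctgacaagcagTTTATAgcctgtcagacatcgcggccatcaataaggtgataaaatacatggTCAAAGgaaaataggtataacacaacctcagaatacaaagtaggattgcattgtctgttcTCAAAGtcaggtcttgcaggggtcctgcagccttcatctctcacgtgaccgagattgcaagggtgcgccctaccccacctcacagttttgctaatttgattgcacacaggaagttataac
Dkk2: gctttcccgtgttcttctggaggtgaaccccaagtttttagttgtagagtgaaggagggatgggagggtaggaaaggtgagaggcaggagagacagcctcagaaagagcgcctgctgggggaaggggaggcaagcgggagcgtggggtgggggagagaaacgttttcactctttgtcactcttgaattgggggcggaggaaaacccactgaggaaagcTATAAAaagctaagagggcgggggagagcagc
Sfrp2: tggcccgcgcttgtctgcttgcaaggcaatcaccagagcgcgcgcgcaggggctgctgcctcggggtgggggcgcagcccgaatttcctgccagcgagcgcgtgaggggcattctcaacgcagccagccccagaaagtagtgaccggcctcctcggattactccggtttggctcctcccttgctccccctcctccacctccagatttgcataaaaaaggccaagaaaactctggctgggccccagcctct
The inner Lef1 window held 2 copies of CTTTGA, both in reverse, and 1 TATAAA in reverse, and the Dkk2 window held 1 TATAAA and no CTTTGA. The Axin2 and Sfrp2 windows held neither, nor did those at the 3 other Lef1 starts, at Nkd1 and at 1 of 2 Tcf7 starts. The other Tcf7 window held 1 TATAAA in reverse. Over all 32851 RefSeq windows of this length, 13.8% held CTTTGA and 12.4% held TATAAA on either strand.

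Values were deposited as FPKM, which scales fragments by transcript length and library size, so levels of different genes can be compared per length, and read depth was unknown. Between 9495 and 12000 genes per library reached 1 FPKM. Changes below are limma estimates of log2(FPKM + 1), a scale on which low genes appear to change less than they do, and a gene was called at a Benjamini-Hochberg adjusted p under 0.05 over 12699 tested genes. All 10 Wnt genes passed the filter of 1 FPKM in at least 3 libraries, but Lef1 reached that level in only 4 libraries, 3 of them embryo. Each group is described as biological replicates, no animals or cultures are named, and the p-values reflect how far these libraries spread, which may be in part technical. Over all tested genes, the median change was -0.28 in transplant against teratoma, 0.23 in transplant against adult, -0.24 in transplant against embryo, 0.50 in teratoma against adult, 0.01 in teratoma against embryo and -0.42 in adult against embryo. Under median-ratio scaling the share of called genes that were higher was 43.4% in place of 18.5%, 51.8% in place of 61.7%, 51.3% in place of 35.0%, 53.0% in place of 80.3%, 59.4% in both, and 49.8% in place of 30.0%, in the same order. Under quantile normalization those shares were 45.6%, 48.1%, 46.6%, 48.7%, 49.6% and 49.3%. All 12 muscle progenitor markers were detected in every group. Among them Pax7, Myf5 and Myod1 had means of 42.3, 58.0 and 41.7 FPKM in transplant, 23.1, 55.1 and 50.4 in teratoma, 9.11, 42.0 and 403 in adult, and 14.0, 12.7 and 18.2 in embryo. Embryo replicate 2 listed 74 genes at 0 that both other embryo libraries had at 5 FPKM or above. The same count was 6 to 27 elsewhere. None of the 10 Wnt genes was listed at 0 anywhere.

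Embryonic cells had the highest mean level of 7 of the 10 genes, namely Axin2, Lef1, Apcdd1, Nkd1, Dkk2, Sfrp1 and Sfrp2. Dkk3 and Sfrp4 were highest in transplant cells and Tcf7 in adult cells. In transplant against embryo, 9 of the 10 genes were called, beside 42.5% of all tested genes: 2 were higher (14.9% of all) and 7 lower (27.6%). In adult against embryo 8 were called (52.8% of all), 1 higher (15.8%) and 7 lower (36.9%). In teratoma against embryo 6 were called (26.0% of all), 1 higher (15.5%) and 5 lower (10.6%). With a pseudocount of 0.1 this last count was 3, without the calls of Lef1, Apcdd1 and Nkd1. The counts of 9, 8 and 6 each include Lef1 among the lower genes. Lef1 passed the filter only through its embryo libraries and teratoma replicate 3, so its calls against embryo cells give these counts no weight.

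Muscle progenitor markers moved between the same groups. Of the 12, 11 were higher and 0 lower both in transplant against embryo (14.9% and 27.6% of all tested genes) and in teratoma against embryo (15.5% and 10.6%). In adult against embryo 10 of these markers were higher and 1 lower, Pax7 (15.8% and 36.9% of all). Their summed level ran from 529 to 732 FPKM in transplant, 528 to 681 in teratoma, 1323 to 1538 in adult and 176 to 224 in embryo. The largest parts of the adult sum were Myod1, Sdc4 and Des, at means of 403, 332 and 263 FPKM. In transplant against adult 3 of the 12 markers were higher and 6 lower (27.3% and 16.9% of all). Itga7, the gene of the integrin used in the sort, averaged 43.1 FPKM in transplant, 43.9 in teratoma, 62.0 in adult and 10.4 in embryo. In sorted bulk cells, fewer cells of a type and less RNA per cell cannot be told apart, and the part of this difference in the Wnt gene changes against embryo was not tested.

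Among the transplant, teratoma and adult groups the counts differed by comparison. In teratoma against adult 7 were called (45.4% of all), 6 higher (36.4%) and 1 lower (8.94%). In transplant against teratoma 4 were called (22.6% of all), 1 higher (4.18%) and 3 lower (18.5%). In transplant against adult 2 were called, both higher, which is below the background (44.2% of all called, 27.3% higher and 16.9% lower). The library ranges of the groups did not overlap for 4 of 10 genes in transplant against teratoma (41.6% of all), 6 in transplant against adult (57.6%) and 9 in transplant against embryo (50.3%). They did not overlap for 9 in teratoma against adult (58.4%), 8 in teratoma against embryo (37.4%) and 9 in adult against embryo (58.5%). The median change of the 10 genes was -0.19 in transplant against teratoma, 0.41 in transplant against adult and -1.31 in transplant against embryo. It was 0.97 in teratoma against adult, -0.96 in teratoma against embryo and -1.85 in adult against embryo. Within groups, transplant replicate 3 was the lowest of its 3 libraries for 9 of the 10 genes and embryo replicate 2 for 8, while embryo replicate 3 was the highest for 9. Without embryo replicate 2, the counts against embryo were 8 for adult, 9 for transplant and 7 for teratoma. Without transplant replicate 3, the transplant counts were 3 against teratoma, 3 against adult and 8 against embryo.

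**Figure D1:**
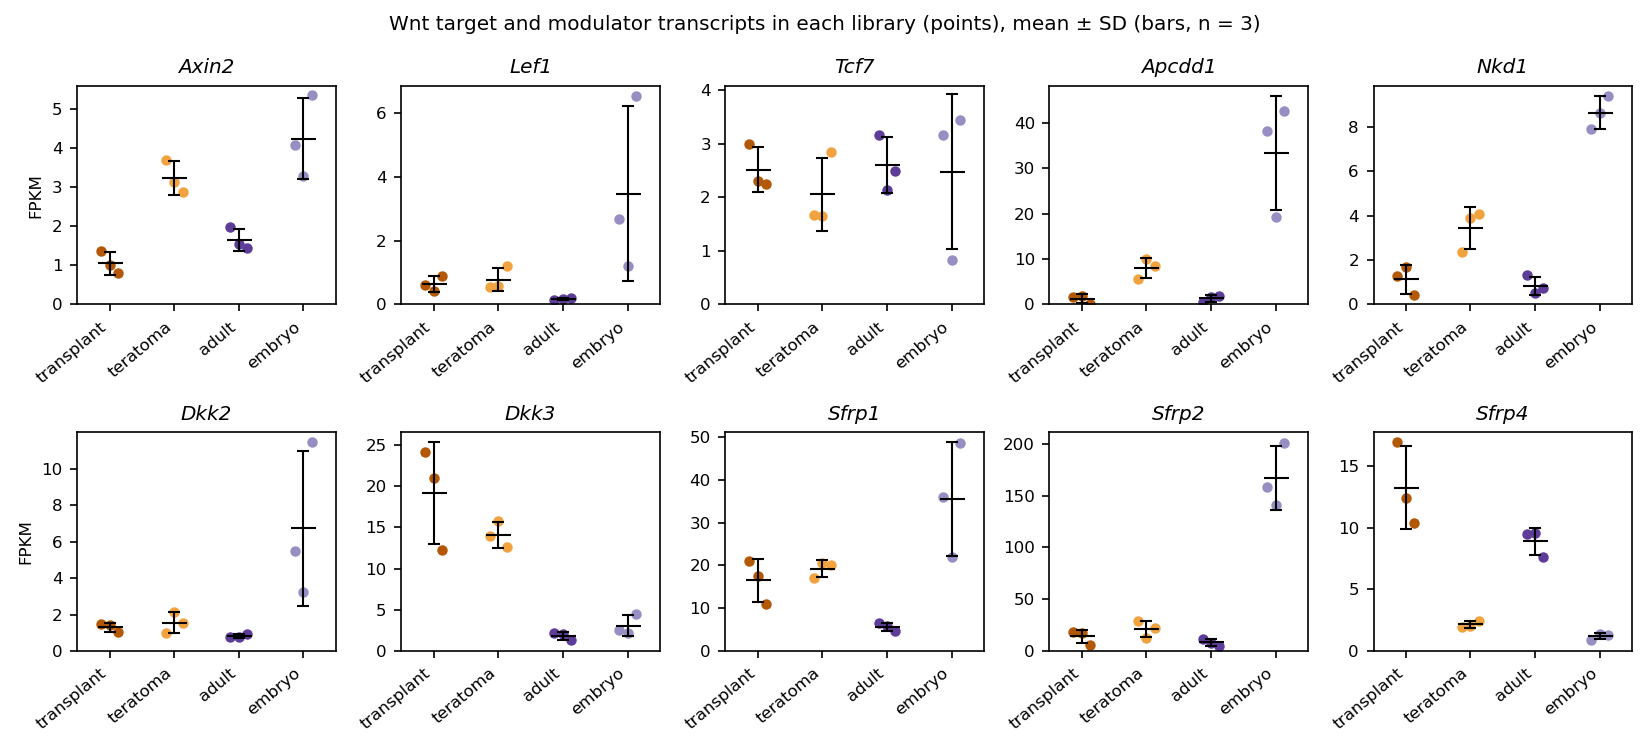
FPKM (linear axis from 0) of the 10 Wnt genes in each library, with points for libraries and bars for mean ± SD (n = 3). The 3 embryo libraries lie above all others for Apcdd1, Nkd1, Dkk2, Sfrp1 and Sfrp2, whereas Sfrp4 is at 7.60 FPKM or more in every transplant and adult library and at 2.47 or less in every teratoma and embryo library.

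The targets Axin2, Apcdd1 and Nkd1 are feedback inhibitors. Axin2, a scaffold of the β-catenin destruction complex and a widely used readout of canonical signalling, stood at 1.38, 1.01 and 0.796 FPKM in the transplant libraries. It stood at 3.71, 3.13 and 2.88 in teratoma, 1.98, 1.55 and 1.45 in adult, and 4.09, 3.29 and 5.36 in embryo. The transplant libraries lay below all others, and teratoma and embryo libraries overlapped above the adult ones. Axin2 fell in transplant against teratoma by 1.05 (SE 0.234, adjusted p = 0.00798), that is by 0.77 more than the median gene. It also fell in transplant against embryo by 1.34 (adjusted p = 0.000669) and in adult against embryo by 0.97 (adjusted p = 0.00406). The last change was -0.58 under median-ratio scaling and -0.28 under quantile normalization, where it was not called (adjusted p = 0.299). For teratoma against embryo the change was -0.29 (95% interval -0.80 to 0.22), and for transplant against adult it was -0.37 (-0.88 to 0.14), and neither was called. Quantile normalization called the second of these (-0.87, adjusted p = 0.00582).

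The call of Axin2 in teratoma against adult, at 0.67 (adjusted p = 0.0341), was a marginal one. Median-ratio scaling gave 0.30 and no call (adjusted p = 0.275), and the sign turned under quantile normalization (-0.12). It was also lost without teratoma replicate 1, 2 or 3 (0.59, 0.69 and 0.73) and without adult replicate 2 or 3 (0.64 and 0.62), where adjusted p ran from 0.0510 to 0.0977. Ranked within its own library, Axin2 lay above 17.1 ± 3.10% of tested genes in transplant, 31.5 ± 2.01% in teratoma, 33.9 ± 3.33% in adult and 39.7 ± 2.91% in embryo (SD, n = 3). By rank, which no scaling of a library moves, teratoma and adult libraries overlapped.

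Apcdd1, a membrane glycoprotein that binds Wnt ligands and LRP co-receptors and inhibits signalling, had the widest spread of the targets. The gene lies on chromosome 18 of mm10 (62922231 to 62961179, plus strand). It was at 1.67, 1.93 and 0.143 FPKM in transplant and 5.67, 9.97 and 8.44 in teratoma, against 0.442, 1.74 and 1.83 in adult and 38.2, 19.2 and 42.7 in embryo. Teratoma libraries stood apart between those of embryo, above, and those of transplant and adult, below, which overlapped. Mean FPKM was 25.0-fold higher in embryo than in adult cells, where Apcdd1 fell by 3.87 on the log2 scale (SE 0.424, adjusted p = 1.28e-05). It fell by 3.97 in transplant against embryo (adjusted p = 1.69e-05), by 1.88 in teratoma against embryo (adjusted p = 0.00658) and by 2.09 in transplant against teratoma (adjusted p = 0.00463). It rose by 1.98 in teratoma against adult (adjusted p = 0.00262), a value of 1.30 under quantile normalization that was still called. Transplant and adult means were 1.25 and 1.34 FPKM, and their difference of -0.11 had an interval from -1.03 to 0.82. Only the call in teratoma against embryo was lost under any alternative, with a pseudocount of 0.1 (adjusted p = 0.0847).

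Nkd1, which binds Dishevelled inside the cell and restrains the pathway, followed a similar order. Its levels were 1.29, 1.71 and 0.425 FPKM in transplant and 2.35, 3.89 and 4.09 in teratoma, against 1.31, 0.523 and 0.734 in adult and 7.91, 8.62 and 9.40 in embryo. The embryo libraries lay above all others, at 8.65 ± 0.748 FPKM (SD, n = 3). Nkd1 fell by 2.40 in adult against embryo (SE 0.293, adjusted p = 2.93e-05), by 2.22 in transplant against embryo (adjusted p = 8.82e-05) and by 1.14 in teratoma against embryo (adjusted p = 0.0135). It rose by 1.26 in teratoma against adult (adjusted p = 0.00435), where quantile normalization gave 0.52 and no call (adjusted p = 0.211) and a pseudocount of 0.1 gave 1.94 (adjusted p = 0.00824). Its fall of 1.08 in transplant against teratoma (adjusted p = 0.0215) lost its call with median-ratio scaling (-0.86, adjusted p = 0.0712) and with quantile normalization (-0.80, adjusted p = 0.0931). It was also lost without transplant replicate 3 (-0.81, adjusted p = 0.0798), teratoma replicate 2 (-0.996, adjusted p = 0.0688) or teratoma replicate 3 (-0.97, adjusted p = 0.0657), and was -1.65 with a pseudocount of 0.1 (adjusted p = 0.0370). The call in teratoma against embryo was lost with that pseudocount (adjusted p = 0.0764) and without teratoma replicate 1 (-0.95, adjusted p = 0.0524). In transplant against adult, Nkd1 changed by 0.18 (interval -0.46 to 0.82) and was not called.

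Lef1 and Tcf7 encode the nuclear partners of β-catenin, and both genes are themselves Wnt targets in several tissues. Lef1 was low throughout, at 0.599, 0.411 and 0.902 FPKM in transplant, 0.552, 0.585 and 1.19 in teratoma, 0.135, 0.178 and 0.207 in adult, and 2.68, 1.22 and 6.53 in embryo. Each embryo library was above every other library, but embryo replicate 2 exceeded teratoma replicate 3 by little. Lef1 fell by 1.75 in adult against embryo (SE 0.372, adjusted p = 0.00178), or by 3.41 with a pseudocount of 0.1. It fell by 1.28 in transplant against embryo (adjusted p = 0.0153) and by 1.17 in teratoma against embryo (adjusted p = 0.0366). Those values were -2.03 (adjusted p = 0.0220) and -1.80 (adjusted p = 0.0611) with a pseudocount of 0.1. Both rested on embryo replicate 3, without which they were -0.81 (adjusted p = 0.05004) and -0.70 (adjusted p = 0.111).

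Other libraries and settings ended these Lef1 calls as well. In transplant against embryo the call was lost without transplant replicate 2 (-1.18, adjusted p = 0.0519) and with only the 2 groups in the fit (adjusted p = 0.0534). In teratoma against embryo it was lost without teratoma replicate 1 (-1.08), teratoma replicate 2 (-1.10), adult replicate 2 (-1.17) or embryo replicate 1 (-1.22), with no filter, and with only the 2 groups in the fit, at adjusted p from 0.0502 to 0.109. Lef1 was not called in teratoma against adult (0.58, interval -0.23 to 1.39), transplant against adult (0.47, interval -0.34 to 1.28) or transplant against teratoma (-0.11, interval -0.92 to 0.70).

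Tcf7, which encodes TCF1, was not called in any of the 6 comparisons. Its levels were 3.00, 2.30 and 2.25 FPKM in transplant, 1.68, 1.65 and 2.84 in teratoma, 3.16, 2.13 and 2.50 in adult, and 3.17, 0.821 and 3.45 in embryo. All 4 groups overlapped, and embryo replicate 2 was the lowest library of the 12. Its changes ran from -0.25 (interval -0.98 to 0.48) in teratoma against adult to 0.22 (interval -0.51 to 0.95) in transplant against teratoma. In adult against embryo it was 0.14 (interval -0.58 to 0.87) beside a median gene at -0.42. Quantile normalization called it lower in teratoma against adult (-1.05, adjusted p = 0.0134). By rank within a library, Tcf7 lay above 31.9 ± 3.42% of tested genes in transplant, 21.1 ± 7.79% in teratoma, 42.3 ± 4.01% in adult and 27.96 ± 8.71% in embryo (SD, n = 3), and the adult libraries, at 38.7% to 46.6%, were above all others.

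**Figure D2:**
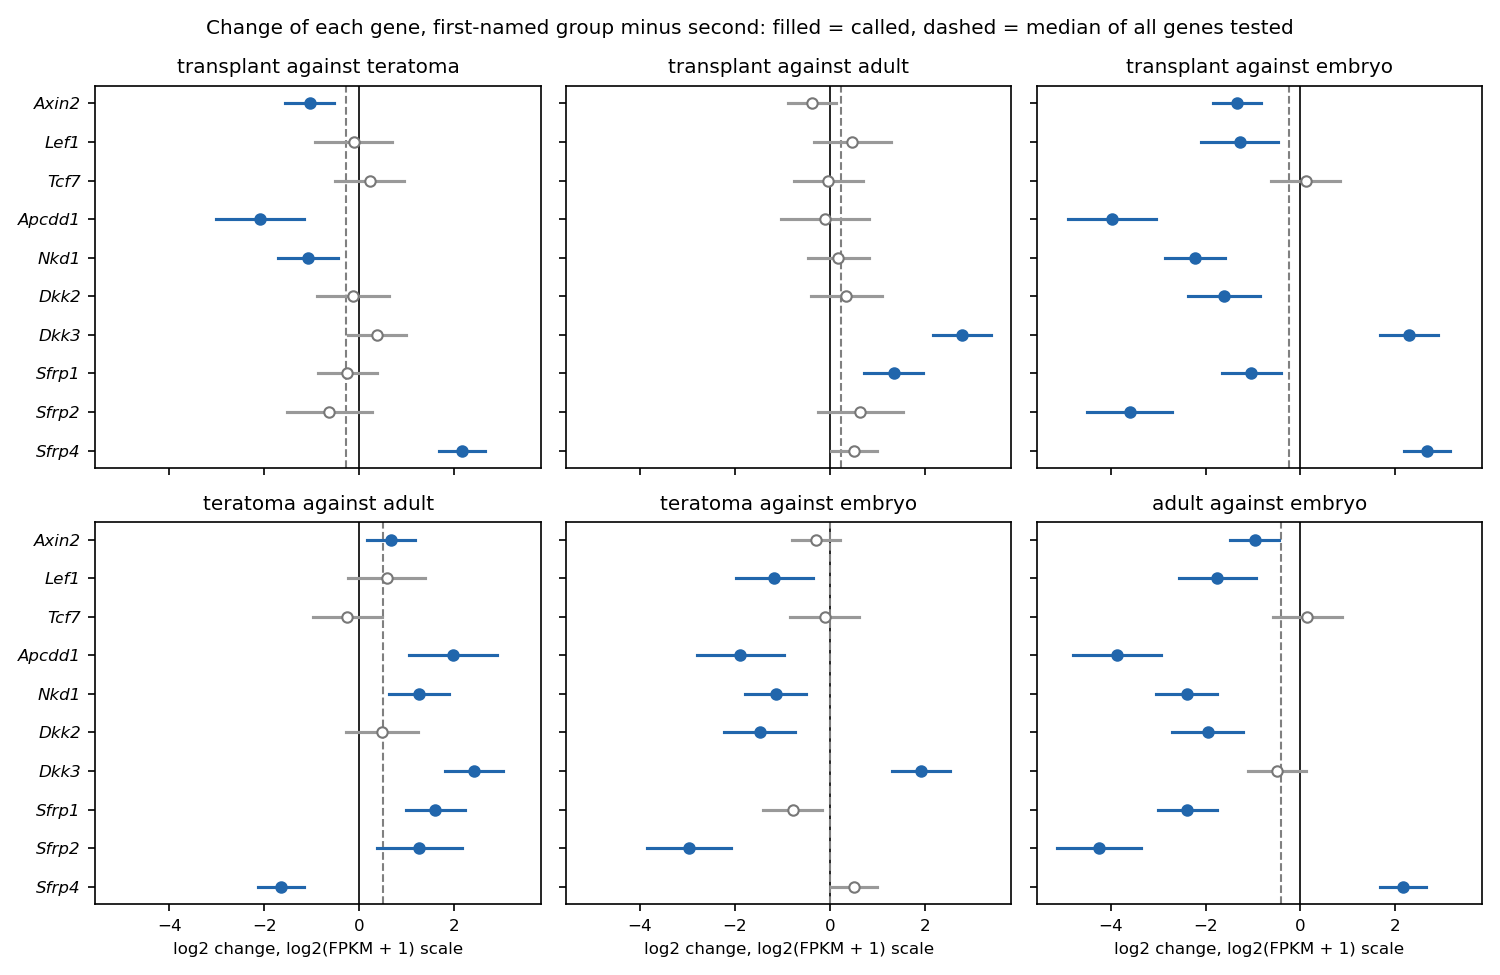
Log2 change on the log2(FPKM + 1) scale with 95% interval for the 10 Wnt genes in the 6 comparisons, filled where called and open where not, with the median of all tested genes dashed. In adult against embryo 7 genes lie below 0 as called and Sfrp4 lies above, at 2.17, and in transplant against adult only Dkk3 and Sfrp1 are filled.

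The Dickkopf genes moved differently from each other. Dkk2 encodes a secreted ligand of LRP co-receptors and Kremen proteins that can inhibit or weakly activate signalling. It was at 1.497, 1.40 and 1.03 FPKM in transplant, 1.01, 2.12 and 1.53 in teratoma, 0.749, 0.740 and 0.925 in adult, and 5.48, 3.25 and 11.4 in embryo. The embryo libraries lay above the rest and differed most among themselves. Dkk2 fell by 1.96 in adult against embryo (SE 0.346, adjusted p = 0.000499), by 1.61 in transplant against embryo (adjusted p = 0.00273) and by 1.48 in teratoma against embryo (adjusted p = 0.00818), calls held under every alternative where it was tested. It was not called in transplant against teratoma (-0.13, interval -0.88 to 0.63), transplant against adult (0.35, interval -0.40 to 1.10) or teratoma against adult (0.48, interval -0.27 to 1.23), and all adult libraries lay below those of the other groups.

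Dkk3, a divergent relative whose place in Wnt signalling is less settled, was high in the transplant and teratoma groups. It was at 24.2, 21.0 and 12.3 FPKM in transplant and 14.0, 15.7 and 12.6 in teratoma, against 2.201, 2.02 and 1.32 in adult and 2.53, 2.22 and 4.49 in embryo. The 6 transplant and teratoma libraries lay between 12.3 and 24.2, and no adult or embryo library exceeded 4.49. Whether host cells were part of the transplant libraries is not given in the labels. Dkk3 rose by 2.79 in transplant against adult (SE 0.282, adjusted p = 1.97e-05), by 2.42 in teratoma against adult (adjusted p = 4.97e-05), by 2.29 in transplant against embryo (adjusted p = 5.06e-05) and by 1.92 in teratoma against embryo (adjusted p = 0.00045). Those 4 calls held under all 22 alternatives. In transplant against teratoma the change of 0.37 (interval -0.24 to 0.98) was not called, and in adult against embryo it was -0.49 (interval -1.11 to 0.12), close to the median gene. Within libraries Dkk3 ranked above 82.9 ± 6.29% of tested genes in transplant and 73.3 ± 2.72% in teratoma, against 35.6 ± 5.29% in adult and 32.3 ± 4.99% in embryo (SD, n = 3).

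The secreted frizzled-related proteins carry a cysteine-rich domain like that of the Frizzled receptors and bind Wnt ligands outside the cell. Sfrp2 was the most abundant of the 10 Wnt genes in embryo cells, at 158, 141 and 201 FPKM. It was at 17.9, 17.8 and 6.22 in transplant, 28.4, 12.7 and 22.4 in teratoma and 11.99, 8.11 and 4.71 in adult. The embryo libraries lay above 98.1 ± 0.156% of tested genes within themselves, and all other libraries were at 28.4 FPKM or less. Sfrp2 fell by 4.24 in adult against embryo (SE 0.409, adjusted p = 4.79e-06), and its mean was 20.2-fold higher in embryo. The log2 change was -3.60 in transplant against embryo (adjusted p = 2.73e-05) and -2.97 in teratoma against embryo (adjusted p = 0.000299). Each of these was called under all 22 alternatives. Between transplant and teratoma the change was -0.63 (interval -1.52 to 0.26), not called.

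Outside the embryo, Sfrp2 was called in 1 of 3 comparisons. Transplant against adult gave 0.64 (interval -0.25 to 1.53), which was called only without transplant replicate 3 (1.10, adjusted p = 0.0317). Teratoma against adult gave 1.27 (adjusted p = 0.0244), but 0.78 with median-ratio scaling (adjusted p = 0.137) and 0.88 with quantile normalization (adjusted p = 0.0972), neither of them called. That call was also lost without teratoma replicate 1 or 3 (1.03 and 1.20) and without adult replicate 2 or 3 (1.30 and 0.96), at adjusted p from 0.0514 to 0.0993.

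Sfrp1 was lowest in adult cells. It was at 21.0, 17.5 and 11.04 FPKM in transplant, 17.0, 20.7 and 20.1 in teratoma, 6.53, 5.90 and 4.68 in adult, and 36.1, 21.9 and 48.6 in embryo. Adult libraries lay below all others, transplant and teratoma overlapped, and embryo lay above. Sfrp1 rose by 1.35 in transplant against adult (SE 0.284, adjusted p = 0.00238) and by 1.60 in teratoma against adult (adjusted p = 0.000815), and fell by 2.39 in adult against embryo (adjusted p = 2.48e-05), calls that held under all 22 alternatives. Its fall of 1.04 in transplant against embryo (adjusted p = 0.0114) lost its call with median-ratio scaling (-0.72, adjusted p = 0.0537), and without transplant replicate 3 (-0.79, adjusted p = 0.0515). In teratoma against embryo the change was -0.78 (interval -1.40 to -0.17, adjusted p = 0.0617), which was called without embryo replicate 2 (-1.09, adjusted p = 0.0115) or transplant replicate 3 (adjusted p = 0.0455), with library quality weights (-0.84, adjusted p = 0.0336) and under quantile normalization (-0.87, adjusted p = 0.0391). Transplant and teratoma differed by -0.25 (interval -0.87 to 0.37), not called.

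Sfrp4 separated the groups in another way. It was at 16.9, 12.5 and 10.4 FPKM in transplant against 1.95, 2.03 and 2.47 in teratoma, and at 9.53, 9.55 and 7.60 in adult against 0.923, 1.36 and 1.33 in embryo. Cells from postnatal muscle, transplanted or native, were thus all above those from teratoma and embryo. Sfrp4 rose by 2.16 in transplant against teratoma (SE 0.223, adjusted p = 8.61e-05), by 2.68 in transplant against embryo (adjusted p = 2.98e-06) and by 2.17 in adult against embryo (adjusted p = 7.85e-06). It fell by 1.65 in teratoma against adult (adjusted p = 0.000131). These 4 calls held under all 22 alternatives. Transplant libraries were all above adult ones, by 0.51 (interval 0.02 to 0.99), which was not called (adjusted p = 0.0835), and teratoma libraries were all above embryo ones, by 0.52 (interval 0.03 to 1.00), not called (adjusted p = 0.111).

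The make-up of the 3 Sfrp transcripts therefore differed by group, a measure within each library that scaling does not touch. Sfrp4 was 31.3 ± 5.84% of their summed FPKM in transplant and 5.11 ± 0.881% in teratoma, and 39.8 ± 5.43% in adult and 0.610 ± 0.191% in embryo (SD, n = 3). Sfrp2 was 30.6 ± 7.52% in transplant, 48.6 ± 12.1% in teratoma, 34.9 ± 7.53% in adult and 82.3 ± 3.08% in embryo. The sum itself was 43.8 ± 14.51 FPKM in transplant and 42.6 ± 6.34 in teratoma, against 22.9 ± 5.57 in adult and 203 ± 44.0 in embryo. Transplant and teratoma libraries thus overlapped in the sum, from 27.7 to 55.9 FPKM in transplant and from 35.4 to 47.4 in teratoma, with different shares of Sfrp4. Between 2 groups of 3 libraries a two-sided exact permutation test cannot give a p below 0.1, and the shares are given without a test.

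**Figure D3:**
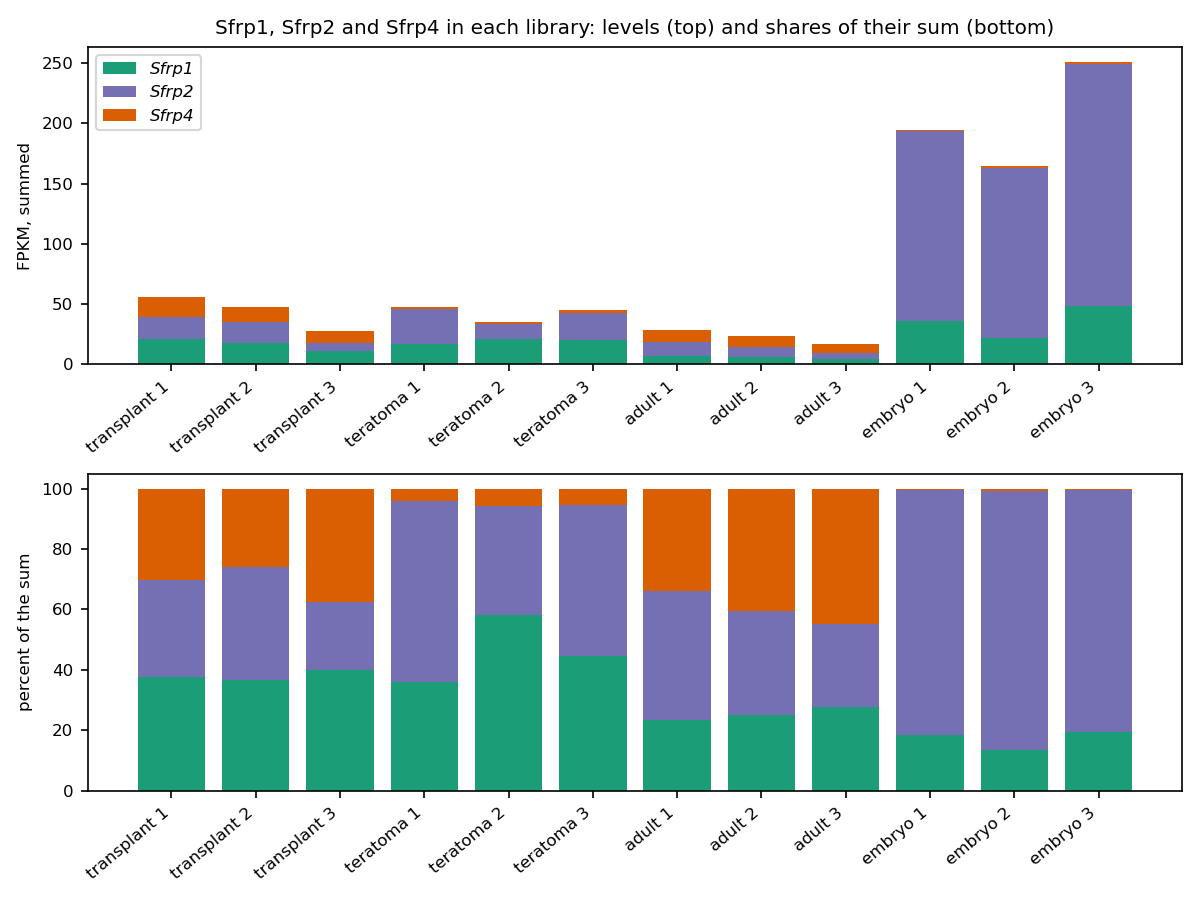
Summed FPKM of Sfrp1, Sfrp2 and Sfrp4 in each of the 12 libraries (top, linear axis from 0) and the percent of that sum from each gene (bottom). Sfrp2 makes up 80.1% or more of the sum in the embryo libraries, and Sfrp4 26.1% or more in the transplant and adult libraries but 5.74% or less in teratoma and embryo.

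**Figure D4:**
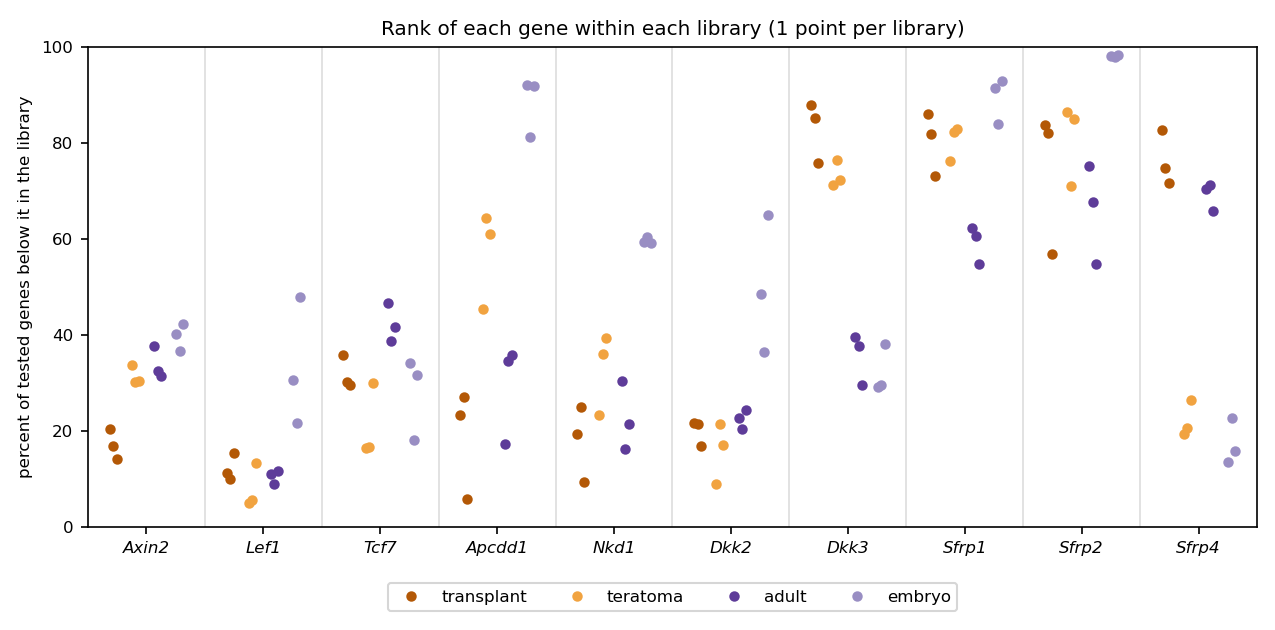
Percent of tested genes with a lower FPKM in the same library, for the 10 Wnt genes, with 1 point per library. Apcdd1 lies at 81.3% or higher in embryo libraries, and Sfrp4 lies at 65.9% or higher in transplant and adult libraries and at 26.4% or lower in teratoma and embryo libraries.

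Ligands, receptors and other parts of the pathway were counted from lists by role, 101 further genes in the table of which 80 were tested. In adult against embryo 11 were higher and 44 lower, that is 68.8% called beside 52.8% of all tested genes, with a median change of -0.93 beside -0.42 for all. In transplant against embryo 11 were higher and 27 lower (47.5% called beside 42.5% of all), with medians of -0.46 for the list and -0.24 for all. In teratoma against embryo 8 were higher and 16 lower (30.0% beside 26.0%, medians -0.23 and 0.01). In teratoma against adult 36 were higher and 6 lower (52.5% beside 45.4%, medians 0.56 and 0.50), and in transplant against adult 29 higher and 11 lower (50.0% beside 44.2%, medians 0.50 and 0.23). In transplant against teratoma 3 were higher and 11 lower (medians -0.20 and -0.28), and the 17.5% called was below the 22.6% of all tested genes. The shares of all genes for the roles below are 15.8% higher and 36.9% lower in adult against embryo, and 4.18% higher and 18.5% lower in transplant against teratoma. The 14 pathway genes called in transplant against teratoma fell to 6 without transplant replicate 1 or teratoma replicate 1. They fell to 7 without teratoma replicate 2, and to 9 without transplant replicate 3 or teratoma replicate 3. All genes called there fell as well, from 2874 to 1803 without transplant replicate 1 and to 1524 without teratoma replicate 1. The 24 pathway genes called in teratoma against embryo fell to 13 without teratoma replicate 2, where all genes called fell from 3308 to 2123.

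Of 10 tested ligand genes, 0 were higher and 4 lower in adult against embryo, where the share lower was near the 36.9% of all genes. Wnt5a, a ligand that signals largely without β-catenin, had a mean of 1.26 FPKM in adult and 27.1 in embryo (log2 change -3.68, adjusted p = 1.49e-06). It was at 12.1 FPKM in transplant and 10.99 in teratoma, and was higher in each than in adult cells (2.57 and 2.42, adjusted p at most 8.52e-05). Wnt2 was listed at 0 in all 3 adult libraries and averaged 5.72 FPKM in embryo. Wnt7b, at 2.37 FPKM in teratoma, and Wnt5b, at 5.27, fell in transplant against teratoma (by 1.56 and 1.04, adjusted p = 0.0218 and 0.0489). Wls, the carrier that escorts ligands out of the cell, was higher in transplant (42.3 FPKM) and teratoma (37.0) than in adult cells (6.497), with log2 changes of 2.51 and 2.35 (adjusted p up to 5.9e-06).

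Among 16 receptors and co-receptors, 2 were higher and 10 lower in adult against embryo (15.8% and 36.9% of all genes). Ptk7, a pseudokinase of planar polarity signalling, averaged 1.59 FPKM in adult and 51.0 in embryo (log2 change -4.36, adjusted p = 5.25e-08), and Fzd2 averaged 1.00 in adult and 25.9 in embryo (-3.74, adjusted p = 7.5e-06). In transplant against teratoma 1 was higher and 2 lower, 18.75% called and thus below the 22.6% of all, with Ptk7 at 11.8 against 33.4 FPKM (-1.44, adjusted p = 0.00101) and Fzd3 at 1.15 against 5.66 (-1.55, adjusted p = 0.00416). Of the 6 tested genes of the R-spondin axis, which controls the turnover of Frizzled receptors, 0 were higher and 4 lower in adult against embryo (15.8% and 36.9% of all genes). Rspo1 averaged 0.539 FPKM in adult and 6.08 in embryo, and its receptor gene Lgr5 averaged 0.195 in adult and 4.17 in embryo (log2 changes -2.14 and -2.08, adjusted p up to 0.000801).

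Inside the cell, Ctnnb1, the gene of β-catenin, was at 78.9 FPKM in transplant and 121 in teratoma (log2 change -0.60, adjusted p = 0.0214), and at 78.9 in transplant against 150.5 in embryo (-0.90, adjusted p = 0.000872). Relative to the median gene these changes were -0.32 and -0.66. Ctnnb1 was the 1 called gene of the 11 transduction genes tested in each of these comparisons. That is 9.09%, below the 22.6% and 42.5% of all tested genes called in them. In adult against embryo 3 of the 11 were higher and 4 lower (15.8% and 36.9% of all genes). Nuclear partners had 1 higher and 9 lower of 12 in adult against embryo (15.8% and 36.9% of all genes). Tcf7l1, a TCF family repressor, averaged 4.14 FPKM in adult and 23.2 in embryo (-2.23, adjusted p = 4.85e-07). The change of its relative Tcf7 was 0.14, as above, and the difference between these genes was not tested. Tle4, a Groucho corepressor, was at 1.99 FPKM in transplant against 8.61 in teratoma (-1.61, adjusted p = 0.00404), and at 1.99 in transplant against 17.8 in adult (-2.66, adjusted p = 5.65e-05).

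Other inhibitors had 2 higher and 3 lower of 9 in adult against embryo and 1 higher and 2 lower of 9 in transplant against teratoma. In the first comparison 55.6% were called, near the 52.8% of all genes. Wif1, a secreted inhibitor, was at 0, 0.241 and 0.119 FPKM in transplant against 11.5, 10.1 and 6.47 in teratoma (log2 change -3.18, adjusted p = 0.000193). Sfrp5, a relative of the Sfrp genes above, averaged 0.136 FPKM in transplant against 8.77 in adult (-3.09, adjusted p = 0.000374). Kremen1, a Dickkopf receptor, averaged 38.2 FPKM in transplant and 30.2 in teratoma against 8.93 in embryo (1.98 and 1.65, adjusted p at most 5.78e-05).

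Further genes often listed as Wnt targets had 3 higher and 9 lower of 14 in adult against embryo (15.8% and 36.9% of all genes). Myc, a growth regulator with many inputs, averaged 207 FPKM in adult and 14.9 in embryo (3.71, adjusted p = 2.24e-08), and it was higher in transplant (80.1) and teratoma (92.6) than in embryo too (2.35 and 2.56, adjusted p at most 1.59e-06). Twist1, a mesenchymal transcription factor, averaged 3.56 FPKM in adult and 83.2 in embryo (-4.36, adjusted p = 6.53e-06). Id2, a helix-loop-helix inhibitor, was at 51.0 FPKM in transplant and 31.8 in teratoma (0.67, adjusted p = 0.0410).

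**Figure D5:**
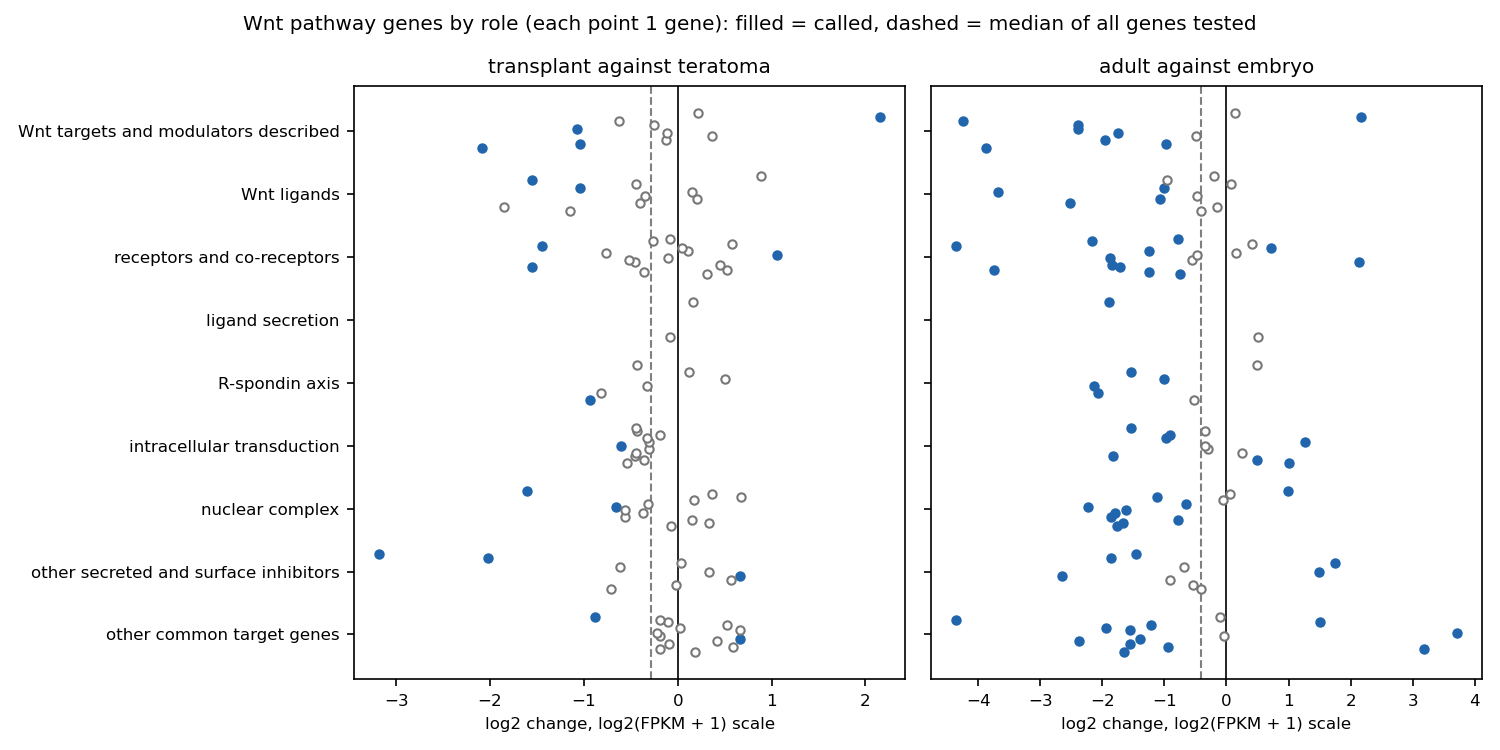
Log2 change of each tested Wnt pathway gene by role on the log2(FPKM + 1) scale, in transplant against teratoma (left) and adult against embryo (right), filled where called, with the median of all tested genes dashed. The top row holds the 10 Wnt genes, with 7 filled points below 0 and 1 above on the right, and 3 below and 1 above on the left. In the other rows together, 44 filled points lie below 0 and 11 above on the right, and 11 below and 3 above on the left.

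Genes with profiles nearest to a Wnt gene were found by the root mean square difference between centred log2(FPKM + 1) values over the 12 libraries, among 8102 candidates. Nearest to Axin2 were Zbtb34 and Setd8 (0.149 and 0.165 log2 units, beside a spread of 0.556 for Axin2 itself). Apcdd1 lay nearest to Cdo1 and Sema5b (0.346 and 0.442 beside 1.70) and Nkd1 to Scube1 and Prkg1 (0.241 and 0.268 beside 0.998). For Lef1 they were Tufm and Prpf19 (0.280 and 0.294 beside 0.753), and for Dkk2 they were Acat2 and Shank1 (0.275 and 0.308 beside 0.827). Dkk3 lay nearest to Aldh1l2 and Ccdc80 (0.240 and 0.265 beside 1.23), and Ccdc80 stood at 70.6 FPKM in transplant, 43.4 in teratoma, 10.3 in adult and 11.4 in embryo. Sfrp1 lay nearest to Sept6 and Fam171a1 (0.249 and 0.255 beside 0.915) and Sfrp2 to Zcchc3 and Mest (0.501 and 0.555 beside 1.69). Tcf7 had no close match, with Tpst1 and Rtf1 at 0.272 and 0.275 beside its own spread of 0.351.

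Markers of other cell types moved between the same groups. Secreted Sfrp and Dkk genes are also expressed by fibroblasts. Of 20 fibroblast markers, 10 were higher and 1 lower in transplant against teratoma (4.18% and 18.5% of all tested genes). In transplant against adult 15 were higher and 0 lower (27.3% and 16.9% of all). In transplant against embryo 13 were higher and 4 lower (14.9% and 27.6%), and in adult against embryo 5 were higher and 10 lower (15.8% and 36.9%). Teratoma cells had 10 higher and 2 lower against adult (36.4% and 8.94%) and 7 higher and 5 lower against embryo (15.5% and 10.6%). Their summed level ran from 6624 to 9795 FPKM in transplant, 3155 to 5129 in teratoma, 1947 to 2547 in adult and 2557 to 3689 in embryo. Col1a1, Col1a2 and Col3a1 weighed most in the transplant sum, at 2320, 1880 and 1516 FPKM. Some markers were higher in adult than in teratoma and embryo, unlike the sum. In transplant, teratoma, adult and embryo, Gsn averaged 798, 93.5, 675 and 30.2 FPKM. In the same order, Dcn averaged 587, 182, 256 and 139, and Dpt 116, 41.3, 64.7 and 20.6. Summed tendon markers ran from 1822 to 2249 FPKM in transplant, 964 to 1103 in teratoma, 484 to 541 in adult and 367 to 489 in embryo. The largest part of that sum in each group was Egr1, which averaged 1062 FPKM in transplant, 781 in teratoma, 409 in adult and 359 in embryo. Of the 10 tendon markers, 6 were higher and 0 lower in transplant against teratoma (4.18% and 18.5% of all tested genes).

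The fall of Axin2, Apcdd1 and Nkd1 in transplant against teratoma also had markers moving beside it. All 10 epithelial markers fell there, as did 8 of 10 endothelial, 7 of 10 mural and 2 of 6 tested leukocyte markers, with none higher, beside 18.5% of all tested genes lower. Such markers also moved in teratoma against adult, where 36.4% of all tested genes were higher and 8.94% lower. There 10 of 10 epithelial, 8 of 10 mural and 5 of 10 endothelial markers were higher and none lower. The same held for 5 of 6 leukocyte and 5 of 8 cartilage and bone markers. The sort had removed cells positive for CD31, an endothelial protein, and CD45, a leukocyte protein. Pecam1, the gene of CD31, averaged 1.96 FPKM in transplant and 7.08 in teratoma (log2 change -1.43, adjusted p = 0.0613, not called), and Ptprc, the gene of CD45, averaged 0.166 FPKM in transplant and 0.906 in teratoma. Epithelial sums were 1.61 to 11.9 FPKM in transplant and 120 to 376 in teratoma, and endothelial sums 9.41 to 11.7 in transplant and 54.6 to 64.0 in teratoma. In transplant libraries 3 epithelial markers (Epcam, Cldn4 and Elf3) were listed at 0 throughout. Erythroid markers, of which 4 of 5 tested fell in adult against embryo (36.9% of all tested genes), summed to 3.72 to 24.8 FPKM in adult and 294 to 1970 in embryo. Cartilage and bone markers had 1 higher and 5 lower of 8 in adult against embryo, and neural and Schwann markers 1 higher and 4 lower of 8. Of all tested genes, 15.8% were higher and 36.9% lower there. The part of any of these cells in the Wnt gene differences was not tested.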

How the data were processed

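Expression was deposited by the authors as FPKM in 1 table, by gene symbol, whose 12 columns each matched the description of 1 library. Cufflinks 2.2.1.0, TopHat 0.7, CASAVA 1.8.2 and Partek, and the build mm10, are listed without roles in the submitters' processing notes. Sorted cells went into a stranded total-RNA kit for low input, per the labels' protocols. Small RNA genes took 39.2% to 97.7% of the FPKM sum of a library. Whole reads could not be recovered from the low values, so depth is unknown and no detection floor is given.

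Values of 240 repeated symbols were summed. Tests used R 4.3.3 and limma 3.58.1 on log2(FPKM + 1), with 4 groups in 1 model (8 residual degrees of freedom), an intensity trend and Benjamini-Hochberg adjustment per comparison over 12699 genes. The fit was run on simulated data, with changes set only in genes of a mean log2(FPKM + 1) above 2. Low genes such as Lef1 were thus not covered, and no outcome is given here. Alternatives numbered 22: a pseudocount of 0.1, no filter, a mean of at least 5 FPKM, median-ratio scaling, quantile normalization, only the 2 groups in the fit, weights for library quality, a block for replicate number, the highest entry of a repeated symbol, isolated zeros set to missing (at 0 with both group mates at 5 FPKM or more), and leaving out each of 12 libraries.

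The Wnt genes and all lists were chosen with earlier results of these data known. Beside the 10 genes, the rule for named genes took, per pathway list and comparison, up to 2 called genes with the largest change whose groups do not overlap and whose higher mean was at least 2 FPKM, and the text gives some of these. The genes nearest in profile came from tested genes with a group mean of at least 5 FPKM. Those for Sfrp4 are not reported here. No list was tested as a set. Coordinates come from GENCODE M21 and upstream sequences from RefSeq on the same build, with entries for Axin2, Lef1, Tcf7, Nkd1, Dkk2 and Sfrp2 used. Dkk3, Sfrp1 and Sfrp4 had no entry, and Apcdd1 was left out of the motif search.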

Additional observations from a re-analysis of the deposited data

How the results depend on the processing

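Over 1287 recomputed changes of the 10 Wnt genes, 1217 kept both direction and side of the threshold, 35 lost a call, 7 gained one and 28 turned sign, and of those only Axin2 in teratoma against adult had been called. Median-ratio scaling turned Lef1 (0.012), Dkk2 (0.050) and Sfrp1 (0.052) in transplant against teratoma. Quantile normalization turned the same 3 genes (0.31, 0.26 and 0.018), Nkd1 and Dkk2 in transplant against adult (-0.28 and -0.13), Axin2, Lef1 and Dkk2 in teratoma against adult (-0.12, -0.20 and -0.40) and Dkk3 in adult against embryo (0.16). Library quality weights turned Tcf7 in transplant against adult (0.013), transplant against embryo (-0.088) and adult against embryo (-0.10).

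Leaving out 1 library gave ranges across 0 for Tcf7 in transplant against adult (-0.13 to 0.080), transplant against embryo (-0.30 to 0.34), teratoma against embryo (-0.52 to 0.13) and adult against embryo (-0.27 to 0.38), for Apcdd1 (-0.42 to 0.32) and Nkd1 (-0.014 to 0.45) in transplant against adult, and for Lef1 (-0.22 to 0.051) and Dkk2 (-0.29 to 0.028) in transplant against teratoma.

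With the filter at a mean of 5 FPKM fewer genes are tested, and of the Wnt genes only Apcdd1, Dkk3, Sfrp1, Sfrp2 and Sfrp4 remained. None of these genes gained or lost a call under this filter. Counts of Wnt genes called were 2 in transplant against teratoma, 5 in transplant against embryo, 3 in teratoma against embryo and 4 in adult against embryo. Pathway genes called were then 9, 23 and 36 in transplant against teratoma, transplant against embryo and adult against embryo, and 27 in teratoma against adult. All genes called were 3720 in teratoma against adult, 2084 in teratoma against embryo and 4370 in adult against embryo. A pseudocount of 0.1 gave 3 Wnt genes in teratoma against embryo, and the cause was not tested. Without 1 library, genes called ran from 1524 to 3285 in transplant against teratoma and from 2123 to 3184 in teratoma against embryo, and pathway genes called from 6 to 14 and from 13 to 26.

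The replicate numbers only name libraries: correlations of same-numbered deviations ran from -0.10 to 0.10 over 18 pairs, and 3 of 12 libraries correlated best with their own number. With the replicate number as a block, Wnt genes called were 4, 2, 9, 7, 6 and 8 in the order transplant against teratoma, adult and embryo, teratoma against adult and embryo, and adult against embryo. FPKM without depth limits what low genes such as Lef1 can show.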
